A study of Caenorhabditis elegans with 15 samples.

Results

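Worms exposed to silica (SiO2) nanoparticles were compared directly with worms exposed to silver (Ag) nanoparticles, with the unexposed Control worms shown beside them as a level. The comparison used the 5 SiO2 samples (replicates 11 to 15) and the 5 Ag samples (replicates 6 to 10) of the 15 samples in the series. The 5 Control samples (replicates 1 to 5) entered no test. Of the 46778 genes counted, the 18970 with a total of at least 10 reads over the 10 exposed samples were tested. At that limit 140 genes had a total of 10 and were kept, and 152 had a total of 9 and were left out.

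All 15 samples were total RNA of whole N2 worms, the standard wild-type hermaphrodite strain of Caenorhabditis elegans, collected on day 1 of adulthood and fed Escherichia coli OP50. The SiO2 and Ag worms received their particles at 10 µg/ml and the Control worms received 0 µg/ml. Worms were grown in wells of multi-well plates and each condition was repeated. The methods give more repeats of each condition than there are samples per group here. The labels do not tie a sample to a well or to a repeat of the experiment. The p-values therefore measure the spread between these samples, which may in part be technical. The sample labels and the methods of the study differ on when the particles were present. The methods place them in the wells from the first larval stage through the 72 h of growth at 21 °C, and the labels place the incubation at adult day 1. Markers of the tissues and stages of an egg-laying adult were present in every library, among them elt-2 of the intestine (40.2 to 64.7 in CPM, reads scaled to a common library depth, over the 15 libraries), col-19 of the adult epidermis (449.6 to 767 CPM) and myo-3 of body wall muscle (171 to 397 CPM).

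The worm has no circulating immune cells. Its intestine digests the bacterial food and, together with the epidermis, makes the antimicrobial lysozymes, saposin-like proteins, C-type lectins and small secreted proteins of innate defence. The epidermis also secretes the collagens of the cuticle, which are made in bursts around each molt. Sulfur amino acid, fatty acid and detoxification enzymes of the intestine are known to respond to food, hypoxia and metals. In whole-worm RNA, fewer cells of a type and less RNA per cell cannot be told apart.

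Reads assigned to genes ranged from 18352383 to 24296570 in SiO2 samples, from 16560734 to 21504825 in Ag samples and from 17693844 to 23678845 in Control samples, so that 1 CPM was about 20 reads. SiO2 replicate 14 and Ag replicate 8 lay away from their own groups. On the first principal component of the 10 exposed samples (29.8% of the variance) SiO2 replicate 14 lay at 9.51, against -44.7 to -23.7 for the other SiO2 samples. Ag replicate 8 lay at 60.6 on it, against -6.41 to 39.5 for the other Ag samples. With both left out, a step chosen after seeing the data, 2320 genes passed the test described next, against 389 with all 10 samples, and all 389 were among them in the same direction.

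The SiO2 and Ag worms differed in 389 genes, 2.05% of the 18970 tested, by edgeR's quasi-likelihood test at a Benjamini-Hochberg adjusted p under 0.05 over all tested genes. Relative to Ag, 170 genes (0.896%) were higher in SiO2 worms and 219 (1.15%) were lower. In what follows, higher, lower and fell describe SiO2 relative to Ag and do not say which exposure differed from Control. The median log2 fold change of SiO2 over Ag was 0.98 among the higher genes and -1.11 among the lower genes, and 0.00 over all tested genes. The 5 SiO2 and 5 Ag values did not overlap for 357 of the 389, where 1032 of all tested genes (5.44%) did not overlap. At an unadjusted p under 0.05 there were 4045 genes. The called gene nearest to the threshold had an adjusted p of 0.0499, and the nearest gene not called had 0.05004.

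The split by direction and the number of lower genes both changed with the library left out and with the test. Lower genes numbered 129 without SiO2 replicate 12 and 781 without SiO2 replicate 14, against 219 with all 10 samples. Of the 389 genes, 146 passed the test under every one of 19 other settings, 33 of them higher and 113 lower in SiO2. Higher genes were 43.7% of the calls with all 10 samples. They were 23.5% of the 264 calls without Ag replicate 9, 56.4% of the 491 without Ag replicate 8, 54.8% of the 1313 by DESeq2 and 58.0% of the 1103 by edgeR's likelihood ratio test.

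**Figure D1:**
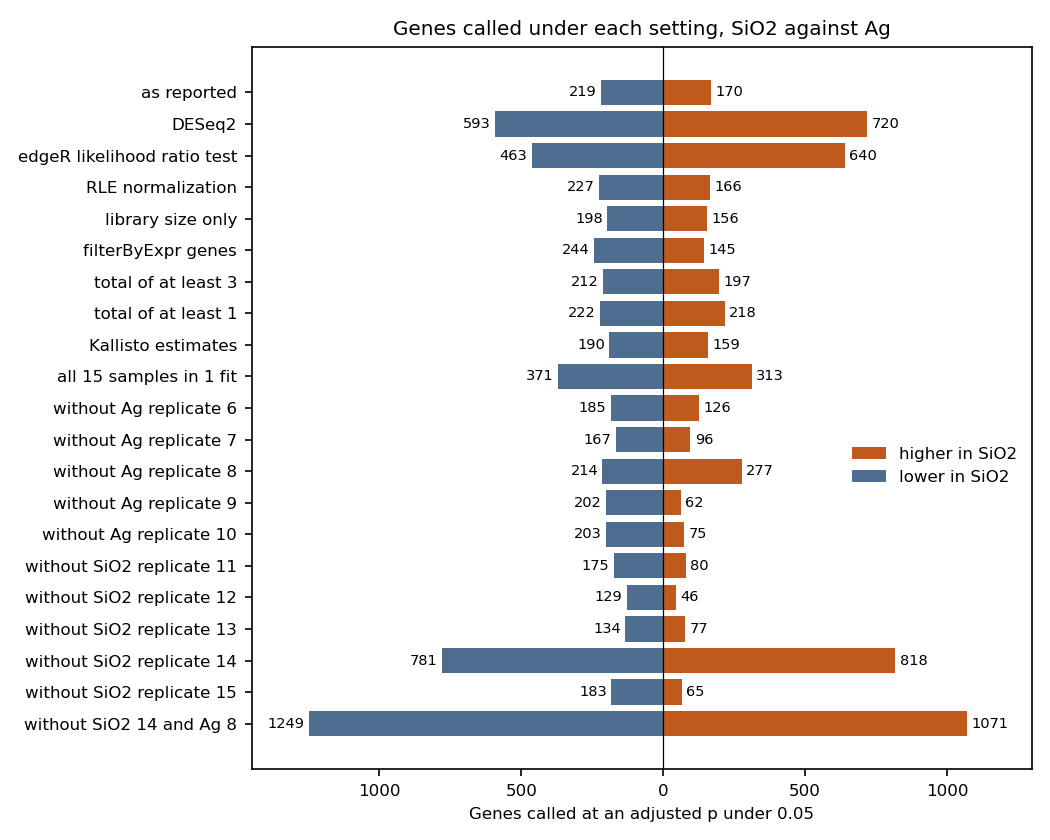
Number of genes called higher (orange) and lower (blue) in SiO2 than in Ag under each setting, with all 10 samples first. Without SiO2 replicate 14 the counts were 818 and 781, and without SiO2 replicate 12 they were 46 and 129.

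**Figure D2:**
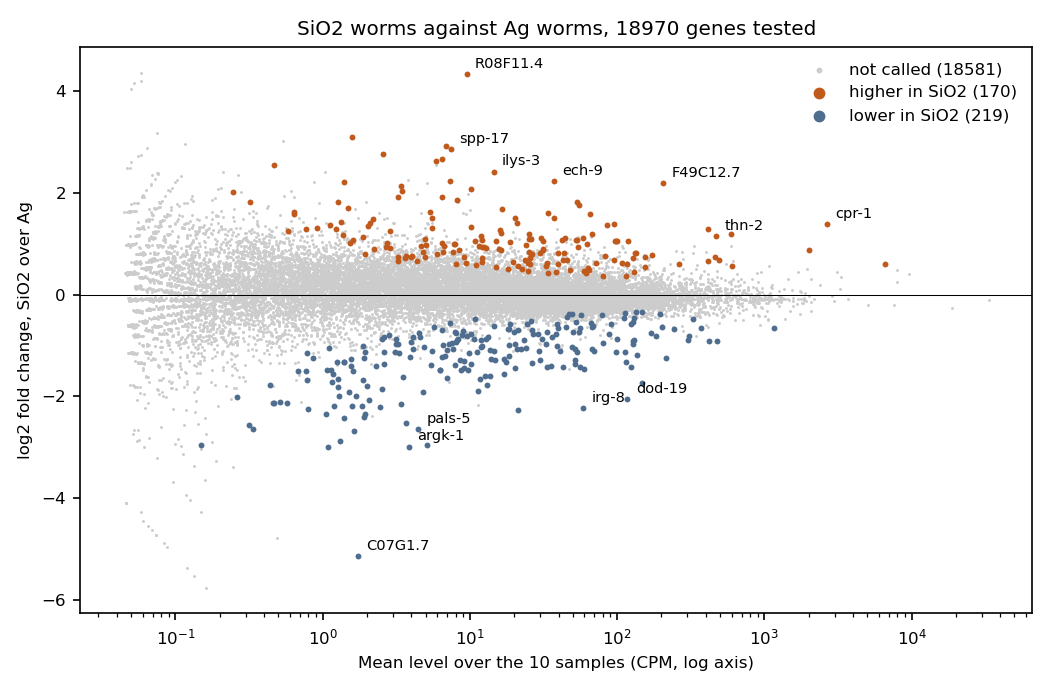
Each point is 1 of the 18970 tested genes. The horizontal axis gives its mean level over the 10 exposed samples (CPM, log axis) and the vertical axis the log2 fold change of SiO2 over Ag, with called genes in orange (170 higher in SiO2) and blue (219 lower) and all others in grey. R08F11.4, at a log2 fold change of 4.33, lies furthest above zero among called genes and C07G1.7, at -5.15, furthest below.

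The Control level separated the called genes into several patterns. Of the 170 genes higher in SiO2, the Control mean lay between the 2 exposures for 126, nearer to Ag for 65 and nearer to SiO2 for 61. It lay beyond the SiO2 mean for 30 and beyond the Ag mean for 14. Of the 219 genes lower in SiO2, the Control mean lay between for 151, nearer to SiO2 for 81 and nearer to Ag for 70, beyond SiO2 for 40 and beyond Ag for 28. SiO2 minus Control and Ag minus Control share the Control samples, so they are given side by side and were not set against each other in a test.

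**Figure D3:**
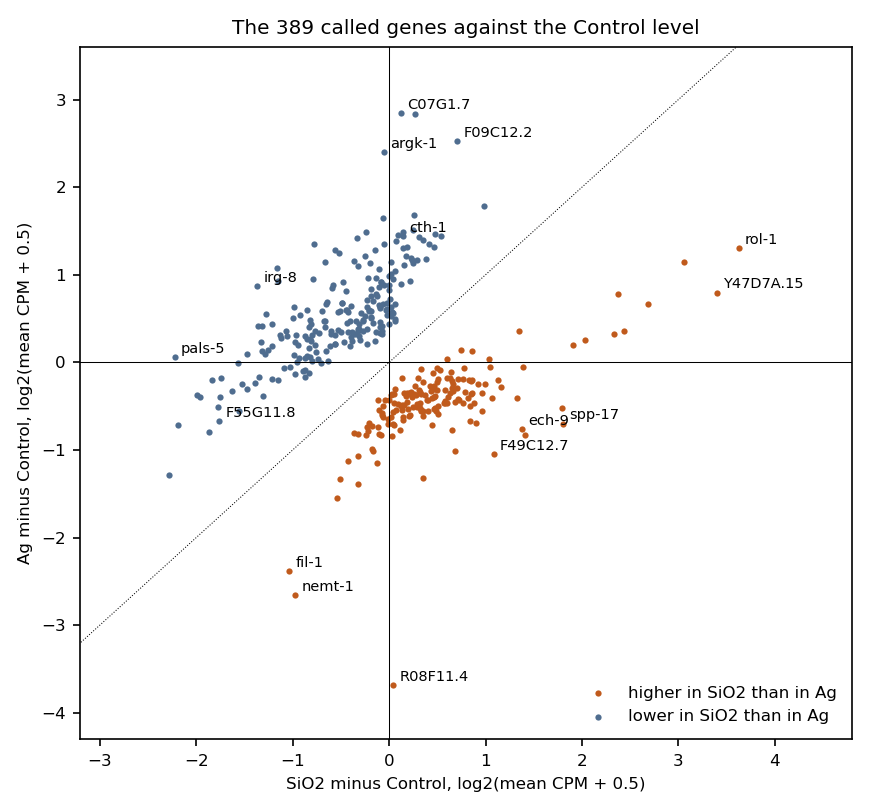
For each of the 389 called genes, the horizontal axis gives SiO2 minus Control and the vertical axis Ag minus Control, both as differences of log2(mean CPM + 0.5). Genes higher in SiO2 than in Ag (orange) lie under the dotted line of equal difference and genes lower in SiO2 (blue) above it. R08F11.4 sits near the SiO2 zero line and far under the Ag one, argk-1 and cth-1 sit near the SiO2 zero line and above the Ag one, and pals-5 sits near the Ag zero line.

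Among the genes lower in SiO2, the smallest p-values belonged to infection response genes. dod-19, named for lying downstream of the insulin-pathway factor DAF-16 (V:411782-414759 on WBcel235, minus strand), had 39.5, 27.4, 50.1, 46.7 and 58.8 CPM in SiO2 worms, against 181, 158, 237, 198 and 179 CPM in Ag worms. Control worms had 105, 78.3, 77.1, 113 and 125 CPM. The 3 groups did not overlap, with SiO2 below Control and Ag above it. The level was 4.16-fold lower in SiO2 (log2 fold change -2.06 ± 0.17 SE, adjusted p = 7.81e-05).

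irg-8, an infection response gene next to it (V:415870-417706, minus strand), followed the same order. It had 19.3, 12.9, 22.6, 25.9 and 20.7 CPM in SiO2 worms, against 74.7, 78.0, 133, 106 and 96.3 CPM in Ag worms and 67.4, 37, 38.9, 48.4 and 74.2 CPM in Control worms. Every SiO2 sample was under every Control sample and every Ag sample above them, although the lowest Ag value lay next to the highest Control value. It was 4.68-fold lower in SiO2 than in Ag (-2.23 ± 0.19, adjusted p = 7.81e-05). The third gene of the stretch, Y39D8A.1 (V:418732-421840, plus strand), was also lower, at 0.771 ± 0.11 CPM in SiO2, 3.38 ± 0.46 CPM in Ag and 2.01 ± 0.79 CPM in Control worms (SD, n = 5 each).

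Of the 18 measured infection response (irg) and DAF-16-downstream (dod) genes in the list, 6 fell in SiO2 relative to Ag, 1 was higher and 11 did not pass. The list's median log2 fold change was -0.54. The other 4 that fell were irg-6 (log2 fold change -2.69), dod-24 (-1.42), dod-22 (-1.24) and dod-23 (-0.62). dod-22 averaged 124 CPM in SiO2 worms, 306 CPM in Ag worms and 385 CPM in Control worms, so both exposures were under Control on average, although the Ag samples (231 to 434 CPM) overlapped the Control samples (306 to 516 CPM). The 6 were called in all 19 other settings. Their Control mean lay between the exposures and nearer to Ag for 4, nearer to SiO2 for 1 and beyond Ag for 1. The exception in direction was dod-3, at 159 CPM in SiO2, 99.3 CPM in Ag and 145 CPM in Control worms (0.73 ± 0.13, adjusted p = 0.00959), which was not called with the Kallisto estimates (adjusted p = 0.0797).

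The pals genes that passed were all lower in SiO2. They form a nematode family of unknown biochemistry whose members mark and regulate the response to intracellular pathogens such as microsporidia and virus. Of 37 measured, 11 fell in SiO2, none was higher and 26 did not pass, with a median log2 fold change of -0.73 and 29 of 37 negative. The share lower was 29.7%, against 1.15% of all tested genes. Whether a list exceeded the share of all tested genes was not tested, here or for the lists below. pals-5, the usual reporter gene of that response (I:13130813-13132466, minus strand), had 1.54, 1.38, 0.773, 0.923 and 1.30 CPM in SiO2 worms, against 8.35, 11.2, 3.88, 7.11 and 7.96 CPM in Ag worms and 7.31, 8.70, 6.55, 6.69 and 7.53 CPM in Control worms. Ag samples spanned the Control range, and no SiO2 sample reached it. pals-5 was 6.28-fold lower in SiO2 than in Ag (-2.65 ± 0.29, adjusted p = 0.0006).

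For all 11 called pals genes the Control mean lay at the Ag side: between and nearer to Ag for 5 and beyond Ag for 6. pals-14 averaged 6.11 CPM in SiO2, 19.1 CPM in Ag and 21.6 CPM in Control worms, and pals-39 13.9, 30.3 and 25.1 CPM in the same groups. Of the 11, 9 were called in every other setting, and between 9 and 13 pals genes fell when any 1 library was left out. eol-1, which is known to rise with pals genes in worms infected with intracellular pathogens and was picked here after its values were seen, averaged 3.30 CPM in SiO2 worms, 10.7 CPM in Ag worms and 10.7 CPM in Control worms (-1.64, adjusted p = 0.00583). F-box A (fbxa) genes, adaptors of ubiquitin ligases that expanded in nematodes, had 6 of 154 members lower and none higher. That was 3.90% lower, against 1.15% of all tested genes. The number lower was 3 without SiO2 replicate 12 and 14 by DESeq2. The one with the smallest p was fbxa-182, at 18.4 CPM in SiO2, 40.7 CPM in Ag and 33.6 CPM in Control worms (-1.10 ± 0.14, adjusted p = 0.00174), followed by fbxa-30 at 1.42, 3.82 and 2.19 CPM in those groups (-1.37 ± 0.26, adjusted p = 0.0145). pals and fbxa genes have near-identical copies, so reads may have been lost or split between copies in the counting.

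C-type lectins, secreted carbohydrate-binding proteins, moved in both directions. Of 178 measured, 9 fell in SiO2, 4 were higher and 165 did not pass, with a median log2 fold change of -0.13. The shares were 5.06% lower and 2.25% higher, against 1.15% and 0.896% of all tested genes. For the 9, the Control mean lay between the exposures and nearer to Ag for 5, nearer to SiO2 for 1 and beyond Ag for 3. For the 4, it lay between and nearer to Ag for 2, nearer to SiO2 for 1 and beyond SiO2 for 1. The number higher was 1 without SiO2 replicate 12, 2 without Ag replicate 6, 7, 9 or 10 or SiO2 replicate 13, 9 without SiO2 replicate 14 and 10 without Ag replicate 8, and the number lower was 6 to 10 in these settings. DESeq2 called 7 higher and 18 lower, the likelihood ratio test 9 and 14, the fit of all 15 samples 6 and 15, and the fit without SiO2 replicate 14 and Ag replicate 8 gave 15 and 14. clec-86 (X:7139875-7140566, plus strand) had 28, 32.3, 33.3, 29.9 and 30.5 CPM in SiO2 worms, against 92.4, 92.7, 124, 71.8 and 62.5 CPM in Ag worms and 68.3, 60, 55.4, 68.6 and 57.9 CPM in Control worms. SiO2 samples lay under all others, and Ag and Control overlapped. The gene was 2.78-fold lower in SiO2 (-1.47 ± 0.15, adjusted p = 0.000339), and it overlaps alh-10 on the other strand.

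clec-66 was lowest in SiO2 (31.8 CPM), intermediate in Ag (67.4 CPM) and highest in Control (117 CPM), and clec-83 averaged 124, 216 and 197 CPM in those groups. clec-258 averaged 1.07, 4 and 1.52 CPM in SiO2, Ag and Control worms (-1.85 ± 0.25, adjusted p = 0.00216). The members that were higher in SiO2 included clec-169, at 5.55 ± 1.9 CPM against 1.40 ± 0.38 CPM in Ag and 4.24 ± 0.95 CPM in Control worms (2.04 ± 0.27, adjusted p = 0.00188). clec-70 averaged 82.9 CPM in SiO2 and 24.6 CPM in Ag, but Ag replicate 8 had 58.5 CPM, inside the SiO2 range of 55.2 to 114 CPM. Its call was lost without Ag replicate 6, 7, 9 or 10 or SiO2 replicate 12 or 13, with adjusted p up to 0.0752. Its neighbours on chromosome IV were clec-72 (log2 fold change 0.91, adjusted p = 0.0113) and the pseudogene F56D6.15 (2.66, adjusted p = 0.00136), both higher in SiO2, and clec-74 (-1.51), which fell.

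Lysozymes, enzymes that cut bacterial cell walls, split evenly: of 14 measured, 3 were higher in SiO2, 3 fell and 8 did not pass. The 3 that were lower in SiO2 than in Ag were neighbours on chromosome V. lys-2 had 45, 40.6, 59.2, 84.3 and 94.8 CPM in SiO2 worms, against 150, 134, 225, 152 and 171 CPM in Ag worms and 253, 183, 170, 218 and 276 CPM in Control worms (-1.32 ± 0.21, adjusted p = 0.00583). lys-1 averaged 321 CPM in SiO2, 626 CPM in Ag and 621 CPM in Control worms (-0.92 ± 0.15, adjusted p = 0.00623). For both genes the SiO2 samples were the low ones. lys-3 differed from them, since SiO2 (8.96 CPM) was at the Control level (8.81 CPM) and Ag was above both (20.2 CPM), and its call (-1.11, adjusted p = 0.0322) was lost without Ag replicate 7 or SiO2 replicate 12, with adjusted p up to 0.08.

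ilys-3, an invertebrate-type lysozyme of the pharynx and gut (IV:2464456-2465443, plus strand), was the most changed of the higher ones. It had 16.7, 29.4, 23.2, 26.5 and 25.3 CPM in SiO2 worms, against 2.87, 5.41, 9.28, 2.66 and 3.46 CPM in Ag worms and 9.24, 15.7, 6.51, 6.43 and 6.13 CPM in Control worms. SiO2 samples were above every other sample, with replicate 11 just above Control replicate 2. It was 5.35-fold higher than in Ag (2.42 ± 0.29, adjusted p = 0.00124). lys-7 averaged 820 CPM in SiO2, 368 CPM in Ag and 603 CPM in Control worms (1.20 ± 0.20, adjusted p = 0.00801). lys-4 averaged 586, 248 and 294 CPM in those groups (adjusted p = 0.0411), with Ag replicate 8 at 538 CPM, inside the SiO2 range of 475 to 834 CPM. That call was lost with filterByExpr as the count filter and without any 1 library other than Ag replicate 8 or SiO2 replicate 14, with adjusted p up to 0.131.

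**Figure D4:**
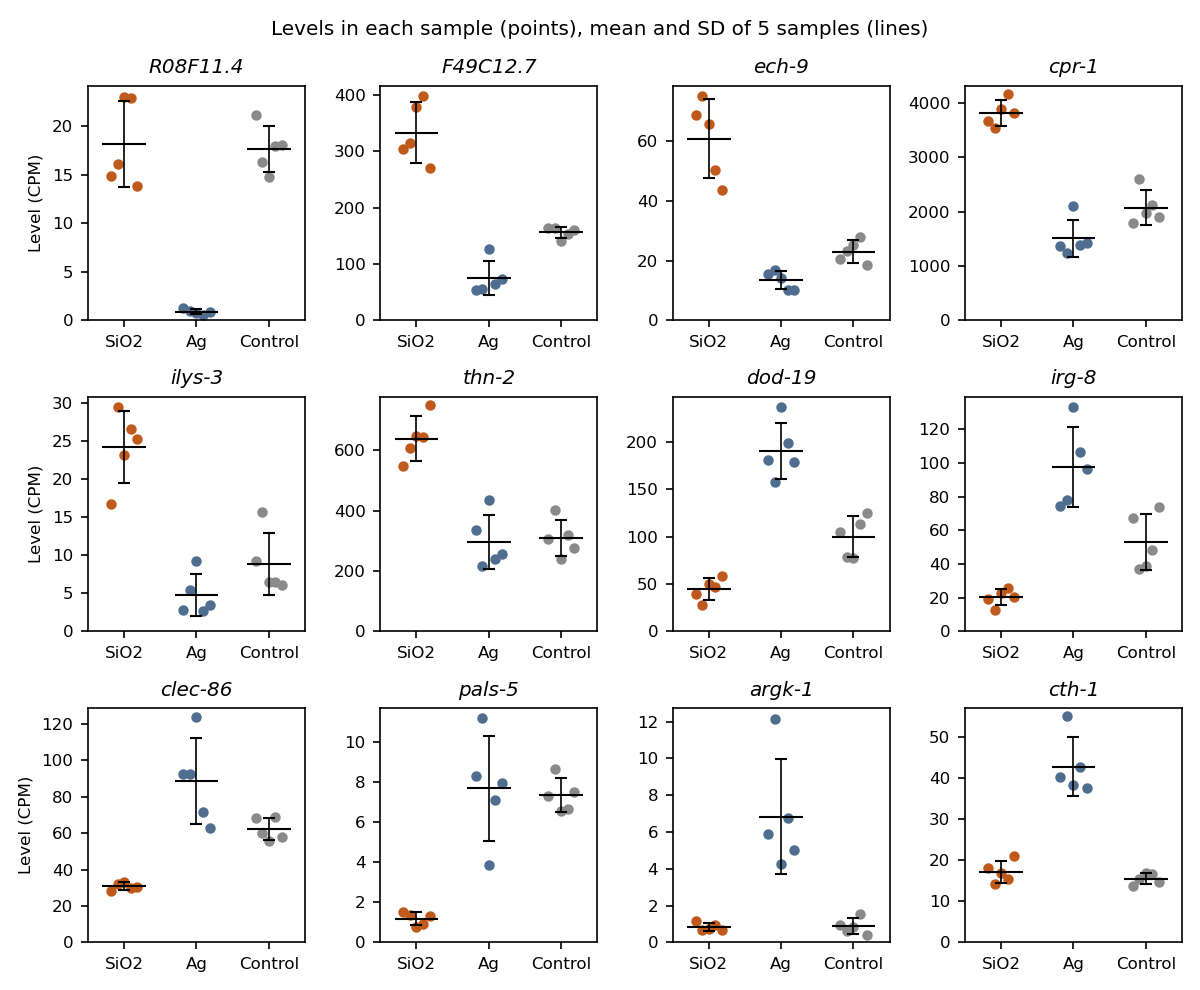
Levels in CPM of 12 genes, 1 panel each, in SiO2 (orange), Ag (blue) and Control (grey) samples. Points are samples, the long line is the mean and the bar is the SD of 5 samples. Read by row, in the first 6 panels all SiO2 samples lie above all Ag samples, and in the last 6 all SiO2 samples lie below them.

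A second set of genes lower in SiO2 stood at the Control level in SiO2 worms and above it in Ag worms. One was argk-1, an arginine kinase of the phosphagen kinase family (V:16103894-16105952, plus strand). It had 1.18, 0.649, 0.725, 0.923 and 0.700 CPM in SiO2 worms, against 5.89, 12.15, 4.28, 6.78 and 5.02 CPM in Ag worms and 0.938, 0.644, 0.865, 1.56 and 0.409 CPM in Control worms. SiO2 and Control overlapped, and no Ag sample came near them. The difference was 7.96-fold (-2.99 ± 0.31, adjusted p = 0.000482), from 14 to 23 reads per SiO2 sample and 65 to 256 per Ag sample.

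cth-1, its neighbour (V:16100680-16102750, plus strand), encodes cystathionine gamma-lyase, which makes cysteine in the transsulfuration pathway. cth-1 had 18.1, 14.1, 16.9, 15.4 and 21.0 CPM in SiO2 worms, against 40.3, 55, 38.4, 42.6 and 37.5 CPM in Ag worms and 13.7, 15.5, 16.9, 16.7 and 14.6 CPM in Control worms (-1.28 ± 0.14, adjusted p = 0.000522). Only the Ag samples were apart. Of the 11 measured transsulfuration and sulfide genes 1 other passed, cysl-2, a cysteine synthase family member that is induced by the hypoxia factor HIF-1. It went the other way, at 168 CPM in SiO2 and 98.8 CPM in Ag worms (0.82 ± 0.17, adjusted p = 0.0251), and Control samples ranged from 106 to 254 CPM and overlapped both. Its call was lost with all 15 samples in 1 fit and without Ag replicate 6, 7, 9 or 10 or SiO2 replicate 12, 13 or 15, with adjusted p up to 0.0954.

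Some enzymes that make fatty acids were lower in SiO2 than in Ag, among them acs-1, elo-5 and elo-2. acs-1 and elo-5 act in the synthesis of branched-chain fatty acids. acs-1 had 54, 47.6, 52.1, 54.7 and 62.3 CPM in SiO2 worms, against 86.2, 99.8, 116, 118 and 117 CPM in Ag worms and 45, 52.0, 54.7, 60.5 and 47.2 CPM in Control worms (-0.94 ± 0.11, adjusted p = 0.000773). SiO2 and Control overlapped and the Ag samples were above both. acs-1 overlaps hpo-26 on the other strand. elo-5 averaged 208 CPM in SiO2, 397 CPM in Ag and 156 CPM in Control worms (-0.89 ± 0.16, adjusted p = 0.0098), and elo-2, a palmitate elongase, 186, 305 and 184 CPM (-0.67 ± 0.13, adjusted p = 0.018). Without SiO2 replicate 13 the adjusted p of elo-2 was 0.0566.

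In the list of fatty acid desaturases and elongases, elo-5 and elo-2 were the 2 of 16 that were lower in SiO2 than in Ag. For both, the Control mean lay beyond the SiO2 mean, so neither averaged less in SiO2 than in Control worms. Of the 16, 8 had positive fold changes and 8 negative ones, and the median log2 fold change was -0.05. fat-7, a stearoyl-CoA desaturase at 1.45 CPM or less in every sample, was the 1 that was higher (1.59 ± 0.36, adjusted p = 0.0403, and up to 0.117 without Ag replicate 6, 7, 9 or 10 or SiO2 replicate 12, 13 or 15). The fat-7 call was also lost with the Kallisto estimates. In the list of acyl-CoA synthetases and dehydrogenases 2 of 35 (5.71%) were lower in SiO2 than in Ag and none was higher. Of all tested genes 1.15% were lower. The first of the 2 was acs-1. The second was acdh-2, at 0.238 CPM in SiO2, 1.92 CPM in Ag and 0.269 CPM in Control worms (-3.0 ± 0.43, adjusted p = 0.0031), a difference that rests on 1 to 8 reads per SiO2 sample and 21 to 52 per Ag sample, in a gene that overlaps ins-13 on the same strand. Genes picked after their values were seen had the same order. pod-2, the acetyl-CoA carboxylase, averaged 889, 1448 and 905 CPM (adjusted p = 0.0412, and up to 0.0893 without Ag replicate 7, 8, 9 or 10 or SiO2 replicate 11 or 13), and sptl-3, a subunit of serine palmitoyltransferase, 71.1, 109 and 70.2 CPM (adjusted p = 0.00959) in SiO2, Ag and Control worms.

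Further genes that were lower in SiO2 than in Ag, with the Control mean nearer to SiO2 or beyond it, included regulators of size and stress, of which lon-1, mpk-2, F09C12.2 and kreg-1 were picked after their values were seen. lon-1, a secreted protein that limits body length under TGF-beta signalling, had 36.7 to 51.7 CPM in SiO2 worms, 72.9 to 112 CPM in Ag worms and 27 to 41.5 CPM in Control worms (-1.08 ± 0.14, adjusted p = 0.00188). The neighbouring MAP kinase genes mpk-2 and F09C12.2 averaged 43.3 and 4.77 CPM in SiO2, 95.6 and 18.1 CPM in Ag, and 38.1 and 2.73 CPM in Control worms (-1.10 and -1.89). kreg-1, named as a target of the stress kinase KGB-1, averaged 1.97 CPM in SiO2, 7.68 CPM in Ag and 2.41 CPM in Control worms (-1.91 ± 0.23, adjusted p = 0.00132). hsp-17, a small heat shock protein, averaged 32.8, 74.2 and 35.2 CPM in those groups and was the 1 of 10 measured heat shock genes to pass (-1.13 ± 0.16, adjusted p = 0.00327). This single call made 10.0% of the list lower, against 1.15% of all tested genes.

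C07G1.7 had the lowest fold change of all called genes (-5.15 ± 0.65, adjusted p = 0.00171). It was read 4, 2, 1, 1 and 1 times in SiO2 samples, 75, 33, 39, 149 and 22 times in Ag samples and 2, 2, 0, 0 and 0 times in Control samples. It was thus close to absent outside Ag, and the size of the fold rests on few SiO2 reads, with a 95% interval of the log2 fold change from -6.55 to -3.75. Y41C4A.32 also stood high in Ag, but unevenly: its 5 Ag samples had 26.8, 5.79, 8.49, 2.66 and 1.38 CPM, against 0.966 to 1.22 CPM in SiO2 and 0.774 to 0.913 CPM in Control worms (-2.97 ± 0.64, adjusted p = 0.031). Its call was lost without SiO2 replicate 11, 12, 13 or 15, with adjusted p up to 0.0814. drd-50, another of the 5 largest decreases, averaged 0.299 CPM in SiO2, 2.31 CPM in Ag and 0.768 CPM in Control worms (-2.89 ± 0.48, adjusted p = 0.00747). C29F3.7 had 9.19, 6.07, 8.98, 7.84 and 7.85 CPM in SiO2 worms, against 22.4, 19, 22.5, 16.9 and 18.1 CPM in Ag worms and 13.4, 13, 12.9, 16.8 and 16.1 CPM in Control worms (-1.26 ± 0.14, adjusted p = 0.000734). No group overlapped another, with Control between the exposures.

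Among genes higher in SiO2, the strongest difference came from a gene that was low in Ag. R08F11.4 (V:3803839-3805527, minus strand) had 14.9, 16, 23, 22.9 and 13.9 CPM in SiO2 worms, against 1.30, 0.997, 0.789, 0.597 and 0.865 CPM in Ag worms and 21.1, 16.3, 14.8, 17.9 and 18 CPM in Control worms. The Control samples lay inside the SiO2 range and every Ag sample was far under both. It was 20.2-fold higher in SiO2 than in Ag (4.33 ± 0.23, adjusted p = 9.24e-07), with 277 to 476 reads per SiO2 sample and 11 to 28 per Ag sample. The next gene, cyp-33C8, a cytochrome P450, was lower in SiO2, at 5.86 CPM against 10.2 CPM in Ag and 7.17 CPM in Control worms (-0.76 ± 0.17, adjusted p = 0.0325). That call was lost without Ag replicate 6 or 7 or SiO2 replicate 12 or 13, with adjusted p up to 0.0872.

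F49C12.7 (IV:9308831-9312927, minus strand) had 304, 315, 379, 398 and 270 CPM in SiO2 worms, against 54.8, 56.1, 127, 64.9 and 74.2 CPM in Ag worms and 164, 164, 142, 153 and 161 CPM in Control worms. The groups did not overlap, and here SiO2 was above Control and Ag below it, the reverse of dod-19. It was 4.59-fold higher in SiO2 (2.20 ± 0.21, adjusted p = 0.000165). The gene overlaps F49C12.6 on the same strand. nemt-1, a nearby gene picked after its values were seen, was low under both exposures, at 12.665 ± 6.5 CPM in SiO2 and 3.6 ± 1.4 CPM in Ag against 25.4 ± 5.2 CPM in Control worms (1.86 ± 0.37, adjusted p = 0.0224). SiO2 replicate 15 (5.05 CPM) was under the highest Ag sample (5.74 CPM), and the call was lost without Ag replicate 9 or SiO2 replicate 12, with adjusted p up to 0.0636.

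fil-1, a lipase induced by fasting that was also picked after its values were seen, had the same order of groups. It averaged 137.7 ± 30 CPM in SiO2 worms, 54 ± 15 CPM in Ag worms and 283 ± 110 CPM in Control worms, and was 2.64-fold higher in SiO2 than in Ag (1.40 ± 0.19, adjusted p = 0.00229). nit-1, a nitrilase, averaged 15.1, 8.07 and 14.8 CPM (0.95 ± 0.12, adjusted p = 0.00185), and unc-25, picked after its values were seen, the glutamate decarboxylase that makes the transmitter GABA, 47.6, 32.2 and 53.7 CPM (0.61 ± 0.10, adjusted p = 0.00634). For both, the SiO2 and Control samples overlapped and the Ag samples were lower than both.

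A few digestive and lysosomal genes of the intestine, cpr-1, cpr-9, asp-6 and lipl-1, were higher in SiO2. Of them, only cpr-1 was called in all 19 other settings. cpr-1, a cathepsin B-like cysteine protease of the gut (V:11975551-11976756, plus strand), had 3671, 3535, 3880, 4159 and 3808 CPM in SiO2 worms, against 1374, 1244, 2094, 1393 and 1430 CPM in Ag worms and 1791, 2598, 1976, 2114 and 1893 CPM in Control worms. SiO2 samples were above every Control sample, and only Ag replicate 8 reached the Control range. It was 2.62-fold higher in SiO2 than in Ag (1.39 ± 0.12, adjusted p = 7.81e-05). cpr-9 averaged 2572, 1447 and 1951 CPM in SiO2, Ag and Control worms (0.88 ± 0.20, adjusted p = 0.0344), but Ag replicate 8 (2495 CPM) lay inside the SiO2 range of 2297 to 3194 CPM. It was called in 10 of the 19 other settings. The call was lost with filterByExpr as the count filter and without any 1 library other than Ag replicate 8 or SiO2 replicate 14, with adjusted p up to 0.129.

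Thus 2 of 8 measured cathepsin B-like proteases were higher and none fell, and summed over the 8 the level was 9126 to 11100.5 CPM in SiO2, 4883 to 9133 CPM in Ag and 6149 to 8060 CPM in Control worms. The number higher was 4 without Ag replicate 8, 3 without SiO2 replicate 14 and 1 without any other 1 library. One member fell by DESeq2, by the likelihood ratio test, with all 15 samples in 1 fit and without SiO2 replicate 14. asp-6, an aspartyl protease, averaged 7875, 5347 and 6961 CPM in SiO2, Ag and Control worms (0.61 ± 0.13, adjusted p = 0.0268). Its call was lost with filterByExpr as the count filter. It was also lost without Ag replicate 6, 7, 9 or 10 or SiO2 replicate 12 or 15, with adjusted p up to 0.114. asp-6 was the 1 of 15 aspartyl proteases to pass. The list had 1 higher and 3 lower by DESeq2, 1 and 2 with all 15 samples in 1 fit, and 1 and 1 by the likelihood ratio test or without SiO2 replicate 14, and 3 higher and none lower without Ag replicate 8. lipl-1, a lysosomal lipase, averaged 314, 213 and 223 CPM in those groups (0.61 ± 0.12, adjusted p = 0.0195, and up to 0.103 without Ag replicate 6, 7, 9 or 10 or SiO2 replicate 12, 13 or 15).

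Saposin-like proteins, small lipid-binding and pore-forming proteins of the gut, had 5 of 26 members higher and none lower (median log2 fold change 0.39). That was 19.2% higher, against 0.896% of all tested genes. spp-17 had 15.9, 8.60, 15.7, 9.23 and 15.2 CPM in SiO2 worms, against 2.55, 0.902, 4.01, 1.36 and 0.519 CPM in Ag worms and 2.77, 4.99, 2.69, 2.00 and 4.26 CPM in Control worms. Here only SiO2 was apart, at 7.27-fold the Ag level (2.86 ± 0.41, adjusted p = 0.00286). The other 4, spp-2, spp-1, spp-8 and spp-25, had log2 fold changes of 0.67 to 0.82, with the Control mean nearer to SiO2 than to Ag. The number of saposins called moved from 1 without SiO2 replicate 12 to 10 without Ag replicate 8. It was 2 without Ag replicate 10 or SiO2 replicate 15, and 3 without Ag replicate 6, 7 or 9.

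The thaumatin-like genes thn-1 and thn-2, kin of plant antifungal proteins and neighbours on chromosome IV, were also higher in SiO2. thn-2 had 547, 606, 646, 644 and 749 CPM in SiO2 worms, against 337, 215, 435, 239 and 258 CPM in Ag worms and 307, 403, 241, 318 and 277 CPM in Control worms (1.15 ± 0.16, adjusted p = 0.00229). Ag and Control overlapped and SiO2 was above both. thn-1 averaged 71.2 CPM in SiO2, 35.3 CPM in Ag and 34.3 CPM in Control worms (1.07 ± 0.19, adjusted p = 0.0109, and 0.0556 without SiO2 replicate 12). Galectins, by contrast, had 3 of 12 members lower and none higher (lec-11, lec-10 and lec-8, at -0.67 to -0.48), and none of the 3 was called in every other setting. No galectin passed without SiO2 replicate 12, 13 or 15, and 1 without Ag replicate 7, 9 or 10 or SiO2 replicate 11, while 2 passed without Ag replicate 6.

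ech-9, of the enoyl-CoA hydratase family of fatty acid oxidation (IV:10233310-10235329, minus strand), had 68.7, 75.1, 65.6, 50.3 and 43.5 CPM in SiO2 worms, against 15.5, 16.8, 14.2, 10.1 and 10.3 CPM in Ag worms and 20.4, 23.1, 25.3, 27.8 and 18.4 CPM in Control worms. All 3 groups were apart, with SiO2 highest and Ag lowest. It was 4.69-fold higher in SiO2 than in Ag (2.23 ± 0.19, adjusted p = 7.81e-05). ugt-18, a UDP-glucuronosyltransferase that conjugates small molecules, averaged 122 CPM in SiO2, 48.8 CPM in Ag and 62.1 CPM in Control worms (1.37 ± 0.18, adjusted p = 0.00174), although Ag replicate 8 had 81.4 CPM against 38.4 to 42.9 CPM in the other Ag samples.

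In the detoxification families, 1 of 67 UDP-glucuronosyltransferases was higher (1.49%) and 2 were lower (2.99%). Of 70 cytochrome P450s 1 was higher (cyp-34A9, 1.10) and 1 was lower (cyp-33C8), 1.43% each. Of 51 glutathione genes 1 was higher (gst-20, 0.42) and 1 was lower (gst-22, -0.70), 1.96% each. Over all tested genes the shares were 0.896% higher and 1.15% lower. The median log2 fold changes of these families were -0.06, -0.04 and 0.02. The Control mean lay beyond the SiO2 mean for cyp-34A9. It lay between the exposures and nearer to SiO2 for cyp-33C8, gst-20 and gst-22. The UDP-glucuronosyltransferases that were lower in SiO2 than in Ag were ugt-47, at 19.5, 34.3 and 22.7 CPM in SiO2, Ag and Control worms (-0.77 ± 0.13, adjusted p = 0.00684), and ugt-43, at 1.6, 3.61 and 3.07 CPM (-1.12 ± 0.21, adjusted p = 0.014). The cyp-34A9 call was lost without SiO2 replicate 12 or 15, with adjusted p up to 0.0589. gst-20 was called in 9 of the 19 other settings (adjusted p up to 0.155) and gst-22 in 10 (up to 0.113), and no glutathione gene passed without Ag replicate 6, 7 or 9 or SiO2 replicate 11, 12, 13 or 15. Of the 15 metal-responsive genes none passed by edgeR's quasi-likelihood test, and 1 passed by DESeq2 and by edgeR's likelihood ratio test. An unadjusted p under 0.05 was found for 6 of the 15, beside 4045 of all 18970 tested genes. The metallothionein mtl-1 averaged 165 CPM in SiO2, 106 CPM in Ag and 126 CPM in Control worms, with a log2 fold change of 0.69 (95% interval 0.24 to 1.14, adjusted p = 0.105). mtl-2 averaged 177, 212 and 130 CPM, with a log2 fold change of -0.20 (95% interval -0.62 to 0.21), and Ag replicate 8 had 333 CPM of it.

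Cuticle collagens held 21 of the 170 higher genes. Of 150 measured col collagens, 21 (14.0%) were higher in SiO2 than in Ag and none was lower. Of all tested genes 0.896% were higher. The median log2 fold change of the list was 0.57, with 118 of 150 positive. col-77 had 66.9, 53.1, 43.5, 50.1 and 59.2 CPM in SiO2 worms, against 26, 23.7, 10.1, 21.1 and 18.3 CPM in Ag worms and 19.4, 22.1, 24.7, 35.5 and 19.4 CPM in Control worms (1.5 ± 0.21, adjusted p = 0.00286). SiO2 samples were above all others. col-125 averaged 92.2 CPM in SiO2, 41.8 CPM in Ag and 57.3 CPM in Control worms (1.18 ± 0.20, adjusted p = 0.00927). For 14 of the 21 the Control mean lay between the exposures and nearer to Ag, and for 4 beyond Ag.

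col-88, one of the 5 largest increases, had 0.462, 4.13, 1.69, 5.08 and 2.85 CPM in SiO2 worms, against 0.185, 0.332, 0, 0.488 and 0.635 CPM in Ag worms and 0.0434 to 0.296 CPM in Control worms (3.11 ± 0.63, adjusted p = 0.023). SiO2 replicate 11 lay inside the Ag range, and the call was lost without Ag replicate 6 or 7 or SiO2 replicate 12, with adjusted p up to 0.0704. rol-1, a cuticle collagen outside the lists that was picked after its values were seen and whose mutants roll, had 20.4, 8.33, 5.17, 7.61 and 9.31 CPM in SiO2 worms, against 2.87, 3.28, 0.197, 1.63 and 0.173 CPM in Ag worms and 0.137 to 0.695 CPM in Control worms (2.64 ± 0.59, adjusted p = 0.0359, and up to 0.0821 without Ag replicate 9 or 10 or SiO2 replicate 11, 12 or 15). col-138, a col collagen also picked after its values were seen, averaged 12.0, 2.59 and 1.45 CPM and bli-6, a collagen of the adult cuticle struts, 16.3, 3.96 and 1.52 CPM in SiO2, Ag and Control worms. bli-6 was called in all 19 other settings and col-138 in 12. The col-138 call was lost with library size only and without Ag replicate 9 or 10 or SiO2 replicate 11, 12, 13 or 15 (adjusted p up to 0.1). In rol-1, col-138 and bli-6 the SiO2 samples were highest and Ag replicate 8 was among the lowest Ag samples. bli-6 was the 1 of 19 body-shape collagens to pass (2.07 ± 0.39, adjusted p = 0.0152), while all 19 had positive fold changes, with a median of 1.07. The number higher was 5 by DESeq2, 6 by the likelihood ratio test, 3 with all 15 samples in 1 fit, 5 without Ag replicate 7, 7 without SiO2 replicate 14 and 10 without both SiO2 replicate 14 and Ag replicate 8.

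Hedgehog- and patched-related genes, an epidermal secreted and membrane family of nematodes that cycles with the molts, had 5 of 81 members higher and none lower. That was 6.17% higher, against 0.896% of all tested genes. grd-6 averaged 8.11 CPM in SiO2, 2.91 CPM in Ag and 3.42 CPM in Control worms (1.5 ± 0.22, adjusted p = 0.00309), and grd-14 8.03, 2.64 and 2.76 CPM (1.63 ± 0.26, adjusted p = 0.00593). The count was 19 without SiO2 replicate 14, 3 without Ag replicate 7 or 9 or SiO2 replicate 11, 13 or 15, and 2 without Ag replicate 10 or SiO2 replicate 12. Of 33 astacin proteases 2 were higher (6.06%), nas-23 and nas-15, which were called in 14 and 12 of the 19 other settings. For both, the Control mean lay between the exposures and nearer to Ag. No astacin passed without Ag replicate 7 or 9 or SiO2 replicate 11 or 13, 7 were higher without SiO2 replicate 14, and DESeq2 called 9 higher and 1 lower. Y47D7A.15 had 8.52, 11.38, 7.10, 17.1 and 16.6 CPM in SiO2 worms, against 2.36, 2.80, 0.197, 1.14 and 1.38 CPM in Ag worms and 0.234 to 1.09 CPM in Control worms (2.93 ± 0.42, adjusted p = 0.0031). K02E11.10, another of the 5 largest increases, had 9.6, 2.41, 2.42, 1.9 and 5.9 CPM in SiO2 worms, against 0.927, 0.617, 0.855, 0.868 and 0.0577 CPM in Ag worms and 0.0988 to 1.04 CPM in Control worms (2.77 ± 0.55, adjusted p = 0.0203). For both genes every SiO2 sample was above all Ag and Control samples.

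The count of col collagens depended on the test and on single libraries. It was 50 by DESeq2, 52 by the likelihood ratio test and 34 with all 15 samples in 1 fit. It was 41 without SiO2 replicate 14 and 51 without both that library and Ag replicate 8, 12 without SiO2 replicate 11, 5 without replicate 12, 11 without replicate 13, 7 without replicate 15, 9 without Ag replicate 9 and 8 without Ag replicate 10. In each of these settings no collagen was lower. Sums of reproduction markers overlapped between the groups. The 17 oocyte and eggshell genes summed to 3619 to 8400 CPM in SiO2, 6055 to 9531 CPM in Ag and 4135 to 7389 CPM in Control worms, and the 11 germline genes to 760.3 to 1799.6 CPM, 1201 to 1923 CPM and 691 to 1320 CPM. All members of both lists had negative fold changes, and none passed by edgeR's quasi-likelihood test, by its likelihood ratio test or by DESeq2. At an unadjusted p under 0.05 there were 5 and 1 of them, beside 4045 of all 18970 tested genes. Without SiO2 replicate 14, 4 and 3 of them fell. Without both SiO2 replicate 14 and Ag replicate 8, 9 of the 17 and 5 of the 11 fell. SiO2 replicate 14 held the highest SiO2 sum of both lists. The 28 major sperm protein genes summed to 101 to 225 CPM in SiO2, 84.2 to 401 CPM in Ag and 55.2 to 106 CPM in Control worms, with Ag replicate 8 at the top. Their median log2 fold change was -0.01, with 14 positive and 14 negative. The part of reproduction markers in the differences was not tested.

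HIF-1-related genes other than cysl-2 were picked after their values were seen. rhy-1, a regulator of HIF-1 that is itself induced by it, averaged 33.9 ± 12 CPM in SiO2 worms, 16.4 ± 2.6 CPM in Ag worms and 22.5 ± 7.6 CPM in Control worms (1.09 ± 0.20, adjusted p = 0.0147). nhr-57, a nuclear receptor used as a HIF-1 reporter, averaged 52.2, 33.4 and 44.2 CPM (0.69 ± 0.16, adjusted p = 0.0471). Control samples were uneven for both, at 13.6 to 30.5 and 27.3 to 73.7 CPM, and overlapped both exposures. The rhy-1 call was lost without Ag replicate 9 or 10 (adjusted p up to 0.0563), and that of nhr-57 without Ag replicate 6, 7, 9 or 10 or SiO2 replicate 13 or 15 (up to 0.159). The nhr-57 call was also lost with RLE scaling, with filterByExpr as the count filter and with all 15 samples in 1 fit. Of 239 nuclear hormone receptors 3 were higher (1.26%) and 1 fell (0.418%), against 0.896% and 1.15% of all tested genes. Among them were nhr-168 (0.72 ± 0.12, adjusted p = 0.00804), nhr-173 (0.49 ± 0.11, adjusted p = 0.0344, called in 10 of the 19 other settings) and nhr-202 (-0.97 ± 0.18, adjusted p = 0.0161). The Control mean lay between the exposures and nearer to SiO2 for nhr-202 and for 2 of the 3 higher ones, and beyond SiO2 for 1. The number of nuclear hormone receptors higher was 1 without Ag replicate 6, 7, 9 or 10 or SiO2 replicate 13, 5 without Ag replicate 8, 10 without SiO2 replicate 14 and 10 by DESeq2. The 1 of 33 insulin-like peptide genes to pass (3.03%, against 1.15% of all tested genes lower) was ins-8. ins-8 averaged 4.23 CPM in SiO2, 11.6 CPM in Ag and 3.92 CPM in Control worms (-1.39 ± 0.33, adjusted p = 0.0484). Its SiO2 and Ag samples overlapped, and it was called in 10 of the 19 other settings.

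**Figure D5:**
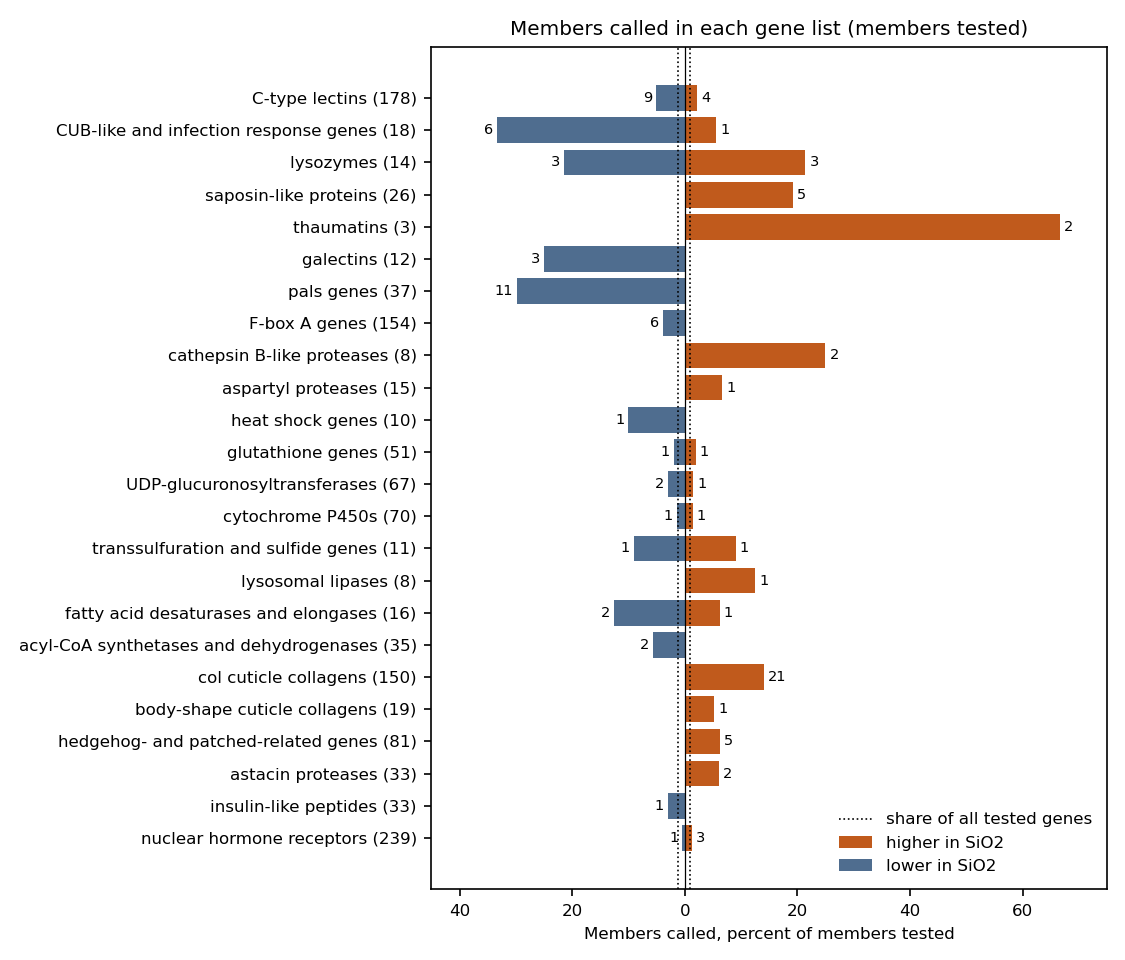
For the 24 gene lists with a called member, bars give the percentage of measured members called higher (orange, right) or lower (blue, left) in SiO2 than in Ag, with the number called beside the bar and the number measured after the name. Dotted lines mark the shares over all tested genes, 0.896% higher and 1.15% lower. pals genes and collagens have members on 1 side each, at 11 lower and 21 higher.

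No member passed edgeR's quasi-likelihood test in 19 of the 43 lists, and 6 of the 19 had 1 to 3 members called by DESeq2. With 2.05% of all tested genes called, a list with few members can hold none, so an empty list does not show that its genes were unchanged. The 19 included antioxidant enzymes (11 genes), Skp1-related genes (19), the stress MAP kinase cascade (14), epidermal antimicrobial peptides (16), vitellogenins (6), FMRFamide-like peptides (30), ribosomal proteins (81) and proteasome subunits (33). Each such list is shown by the member with the highest CPM, a level that is not corrected for gene length. vit-2, a yolk protein gene, averaged 31569 CPM in SiO2, 35302 CPM in Ag and 33120 CPM in Control worms, with a log2 fold change of -0.11 (95% interval -0.33 to 0.10). The 6 vitellogenins had a median log2 fold change of -0.26, with 5 negative and the lowest at -0.99. Without SiO2 replicate 14, 3 of them were called lower, and without both SiO2 replicate 14 and Ag replicate 8, 4 were. rpl-3 had a log2 fold change of -0.12 (-0.29 to 0.04) and snb-1, the synaptobrevin of synaptic vesicles, -0.02 (-0.17 to 0.14). The peptide gene nlp-29 of the epidermis averaged 79.8 CPM in SiO2, 59.9 CPM in Ag and 64.9 CPM in Control worms (0.47, 95% interval -0.07 to 1.01, adjusted p = 0.286). Of the 16 epidermal antimicrobial peptides 13 had positive fold changes. Without Ag replicate 8, 5 of them were called higher, nlp-29 among them (adjusted p = 0.00447). Intervals of the log2 fold change reached from -0.10 to 0.24 for the Skp1-related skr-1, -0.18 to 0.19 for the MAP kinase target atf-7, -0.24 to 0.24 for the ferritin ftn-2 and -0.19 to 0.19 for the peroxiredoxin prdx-2. They were -0.62 to 0.01 for the lipid-binding lbp-2, -0.13 to 0.37 for the muscle actin act-4, -0.54 to 0.14 for the proteasome gene rpn-2, -0.46 to 0.04 for the peptide gene flp-28 and 0.21 to 0.71 for the histone gene his-24 (adjusted p = 0.0613, called in 5 of the 19 other settings). For genes of reproduction they were -0.82 to 0.67 for msp-36, -0.91 to 0.61 for ssq-4, -0.37 to 0.09 for spe-39, -0.96 to -0.03 for cpg-2, -0.82 to 0.06 for gld-1 and 0.21 to 1.07 for sdz-28.

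Called genes lay close together in several places. Taking 3 or more called genes with gaps under 15000 bases, 14 runs held 55 of the 389 genes, and 11 of the 14 went in 1 direction, 10 lower and 1 higher. The runs were built from the called genes themselves, and several hold members of 1 gene family. How many runs would arise at this gap among any 389 tested genes was not tested. On chromosome I, Y26D4A.3, C17H1.2, pals-2 and pals-10 (I:13072229-13107453) and then pals-11, pals-5, pals-9, pals-6 and pals-14 (I:13124168-13141898) were all lower in SiO2. They were 4 of 9 and 5 of 6 tested genes in these stretches. On chromosome IV, 7 of 8 called genes from 1548721 to 1567716, hpo-6 and C34H4.1 among them, were lower, and col-107 was higher. F55G11.7, F55G11.8 and dod-22 were 3 of 5 lower genes at IV:12960436-12991843, among 10 tested there. F55G11.8 had 11.75, 12.8, 13.7, 14.9 and 12.6 CPM in SiO2 worms, against 27.3, 23.5, 36.7, 25.6 and 30.1 CPM in Ag worms and 67.5, 36.8, 32, 34.7 and 58.5 CPM in Control worms (-1.07 ± 0.12, adjusted p = 0.000789). SiO2 lay under all Ag samples, and all but 1 of the Ag samples were under the lowest Control sample.

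Shares of tested genes that were called ranged from 1.06% on chromosome III to 2.90% on chromosome IV, with 0 of 14 on the mitochondrial genome. The strand setting of the counting is not given in the sources used here. For the 51 called genes that overlap a protein-coding gene on the other strand, and the 12 that overlap one on the same strand, reads of the 2 partners cannot be told apart with certainty.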

How the data were processed

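The samples are whole-worm RNA libraries of 3 groups, which were sorted by the sample labels. Reads were trimmed (Trim Galore 0.4.5) and aligned to WBcel235 (HISAT2 2.1.0) by the authors, who deposited raw read counts per gene made with HTSeq 0.9.1 in intersection-strict mode. They also deposited estimated counts per gene from Kallisto, which were rounded and used only as an alternative. Counts and CPM are not corrected for gene length, and the most abundant member of a list was taken by CPM.

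SiO2 was tested against Ag with edgeR 4.0.16 in R 4.3.3 (TMM normalization, quasi-likelihood F test, no covariates, total of at least 10 reads over the 10 samples, Benjamini-Hochberg adjustment, threshold 0.05). SE is the absolute log2 fold change over the square root of F. Levels are CPM (counts scaled to a common library size after TMM) over all 15 samples. The place of the Control mean was taken on log2(mean CPM + 0.5). Steps were tested on simulated data. Positions and symbols came from Ensembl release 115, in which 46603 of 46778 genes were found.

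Named were, among called genes of at least 1 CPM, the 10 per direction with the smallest p and no overlap between groups, the 5 per direction with the largest fold change, and in each list the 2 per direction with the smallest p or, where none was called, the most abundant member. Other genes were named after their values were seen. The comparison, the lists and these rules were chosen with earlier results of these data known. Alternatives were DESeq2 1.42.0, edgeR's likelihood ratio test, RLE scaling, library size only, filterByExpr, totals of at least 3 or 1, the Kallisto estimates, all 15 samples in 1 fit and leaving out each sample.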

Additional observations from a re-analysis of the deposited data

Results flagged for a closer look

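Dixon's test at its 95% critical value for 5 samples was applied to the 3 groups of 125 named genes and 11 summed lists, 408 sets in all. It marked 37 sets, where chance marks about 1 in 20, and 21 of the 37 were Ag replicate 8. Values are CPM of the sample that stood apart.

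Ag replicate 8 was the highest Ag sample for digestive and defence genes, at 2090 CPM of cpr-1 (the other Ag samples had 1240 to 1430 CPM), 2490 of cpr-9, 296 of lipl-1, 892 of lys-1, 538 of lys-4, 330 of lec-10, 294 of clec-83, 58.5 of clec-70 and 118 of nlp-29. It was also highest for F49C12.7 (127 CPM), ugt-18 (81.4), ugt-47 (45.5), gst-22 (41.8), elo-5 (488), ftn-2 (497) and mtl-2 (333), and for the sperm genes msp-36 (37.4) and ssq-4 (53.9). Its summed cathepsin B-like proteases reached 9130 CPM (4880 to 5420 in the other Ag samples) and its summed major sperm proteins 401 CPM (84.2 to 164). Its summed body-shape collagens were the lowest, at 1030 CPM (2190 to 2500). Ag replicate 6 stood apart for Y41C4A.32 alone, at 26.8 CPM.

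Among SiO2 samples, replicate 14 was highest for lys-4 (834 CPM), gst-22 (18.5 CPM) and the summed aspartyl proteases (30100 CPM). Replicate 15 was highest for lys-7 (1280 CPM), spp-8 (721 CPM) and dod-23 (67.1 CPM), replicate 11 for rol-1 (20.4 CPM) and C07G1.7 (0.205 CPM), and replicate 12 was lowest for elo-5 (123 CPM).

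Among Control samples, replicate 1 was highest for F09C12.2 (4.0 CPM), replicate 2 for asp-6 (8800 CPM) and elt-2 (53.6 CPM), replicate 4 for clec-72 (37.7 CPM) and lowest for gst-22 (15.9 CPM), and replicate 5 was highest for drd-50 (1.46 CPM).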

How the results depend on the processing

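With all 10 samples 389 genes passed, 170 higher and 219 lower in SiO2. DESeq2 called 1313 (720 and 593), edgeR's likelihood ratio test 1103 (640 and 463) and a fit of all 15 samples 684 (313 and 371). RLE scaling, library size only, filterByExpr, lower count minimums and the Kallisto estimates gave 349 to 440. Leaving out 1 library gave 175 to 1599 calls, 46 to 818 higher and 129 to 781 lower. The count moved by more than 1.5 times without SiO2 replicate 11 (255), 12 (175), 13 (211), 14 (1599) or 15 (248), and the higher count alone also without Ag replicate 7 (96), 8 (277), 9 (62) or 10 (75). Without SiO2 replicate 14 and Ag replicate 8, chosen after seeing the data, 2320 genes passed (1071 and 1249). The cause of these shifts was not tested. Of the 389 genes, 310 were also called with the Kallisto estimates and 174 without SiO2 replicate 12.

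Of the 125 named genes 97 were called, 63 of them in all 19 other settings. Signs turned only in genes that were not called. By DESeq2, RLE scaling, filterByExpr and all 15 samples, log2 fold changes were -0.0095, -0.0093, -0.0295 and -0.0363 for atf-7, -0.0124, -0.0125, -0.0409 and -0.0470 for ftn-2, and -0.0144, -0.0144, -0.0359 and -0.0423 for prdx-2. With 1 library left out the values ran from -0.0033 to 0.1133 for skr-1, -0.0530 to 0.0177 for atf-7, -0.0968 to 0.1209 for ftn-2, -0.0804 to 0.0397 for prdx-2, -0.0841 to 0.1202 for col-19, -0.0079 to 0.2663 for end-1, -0.3254 to 0.3927 for msp-36 and -0.4069 to 0.3410 for ssq-4. Without both libraries the values were -0.0936 for atf-7, -0.0523 for prdx-2, 0.3940 for msp-36, 0.2925 for ssq-4 and 0.0123 for mtl-2, and with library size only 0.0068 for snb-1. No paired analysis was possible because the labels do not tie a sample to a well or to a repeat of the experiment.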
